A study of Mus musculus with 12 samples.

Results

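The genes described here encode matrix metalloproteinases (MMPs), their tissue inhibitors (TIMPs) and osteopontin, and were picked by symbol from a list of 9. Of these, Mmp8, Mmp9, Mmp12, Mmp13, Mmp19, Timp2 and Spp1 have a row among the 11762 genes of the deposited table, which makes 7 members; Mmp14 and Timp1 were not analysed here. Polyadenylated RNA was sequenced from J774A.1, an established BALB/c mouse line with macrophage features, in 4 groups of 3 biological replicates. The groups were cells given lipopolysaccharide and microparticles together (LPS+MP), LPS alone (LPS), microparticles alone (MP), or neither (control, labelled untreated and described as mock-treated). All groups share the 1 cell line, so nothing here speaks for primary macrophages. The sources used here give no composition, size or dose of the particles, no LPS dose and no exposure times.

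MMPs are zinc-dependent endopeptidases, most of them secreted as inactive precursors that are activated when their propeptide is removed. TIMPs bind the active site and block it, so the balance of MMP to TIMP bears on how fast extracellular matrix is cleared. Macrophages are a main source of the macrophage elastase MMP-12 and of the gelatinase MMP-9, and they secrete osteopontin, an adhesive phosphoprotein that binds integrins and CD44 and can itself be cut by MMPs. LPS, a cell wall component of Gram-negative bacteria, activates macrophages through Toll-like receptor signalling.

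Mmp13, Mmp12 and Mmp8 lie in 1 cluster on chromosome 9, and their promoters are shown because these neighbours answered LPS differently. The sequences are the 250 bases before a RefSeq start of each gene, build GRCm38.p6, all on the plus strand and written 5′ to 3′. Mmp12 has 2 starts in RefSeq, and the window shown precedes the later one, at 7347374, near the start of its listed transcript. In the deposited coordinates (build not named) the gene begins at 7344381, beside the earlier RefSeq start, 7344397. Mmp13 is at chr9:7272264-7272513, Mmp12 at chr9:7347124-7347373 and Mmp8 at chr9:7558179-7558428. Capitals mark matches to the AP-1 motif (TGANTCA) or to a TATA box (TATAAA), each searched on both strands, where N is any base.
Mmp13: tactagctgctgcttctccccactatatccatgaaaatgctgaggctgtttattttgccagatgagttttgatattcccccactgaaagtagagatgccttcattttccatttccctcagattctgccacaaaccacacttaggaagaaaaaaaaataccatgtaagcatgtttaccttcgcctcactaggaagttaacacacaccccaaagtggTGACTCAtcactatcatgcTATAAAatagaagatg
Mmp12: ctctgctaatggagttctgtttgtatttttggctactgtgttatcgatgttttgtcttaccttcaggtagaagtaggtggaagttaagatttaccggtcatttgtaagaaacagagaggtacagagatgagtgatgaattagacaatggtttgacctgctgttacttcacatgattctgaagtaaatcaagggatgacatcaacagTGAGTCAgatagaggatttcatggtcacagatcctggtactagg
Mmp8: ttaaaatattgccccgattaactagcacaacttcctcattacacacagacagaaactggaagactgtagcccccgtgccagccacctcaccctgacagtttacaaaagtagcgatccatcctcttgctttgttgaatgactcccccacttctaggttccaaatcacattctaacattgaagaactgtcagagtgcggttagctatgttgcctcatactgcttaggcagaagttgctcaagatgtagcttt

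Mmp13 carried an AP-1 match at -35 to -29, counted back from the start, followed by a TATA box match at -16 to -11. Mmp12 carried an AP-1 match at -44 to -38 and no TATA box match. Mmp8 carried no match to either. In windows of the same length, 6.75% of the 32851 mouse promoters held an AP-1 match and 12.4% a TATA box match. An NF-kB motif, spelled as GGG and CC with 5 bases of any kind between them, which 45.8% of promoters held, matched none of the 3 windows. At the earlier Mmp12 start in RefSeq, 7344397, it matched at -129 to -120, and neither AP-1 nor the TATA box matched there. The Mmp12 matches thus depend on the start used. Timp2 had no match to any of these motifs, and Spp1 had a TATA box match at -211 to -206. Mmp9 and Mmp19 have no entry in the promoter table. A match describes letters in a window and not a bound site.

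Values were read as CPM, a gene's reads in every 1000000 of its library, which the deposited headers call RPKM. They are given for replicates 1, 2 and 3 in turn. "Rose" and "fell" are used where the adjusted p was under 0.05 and the change over 2-fold, which is 1 on the log2 scale (limma on log2(CPM + 1), 11745 genes tested). Fold changes are on this log2(CPM + 1) scale, with their SE, and understate the change of low genes. LPS replicate 2 stood apart: in 339 genes it lay over 1 (log2) away from the average of its group's remaining libraries, against 1 to 29 genes for each of the other libraries. Members called numbered 3, 3 and 3 with and without it in LPS against control, LPS+MP against LPS and the interaction. Changes without it stand beside the results, and those not given there were, in LPS against control, 0.96 for Mmp9, 3.04 for Mmp13 and 0.85 for Mmp19, and, in LPS+MP against LPS, -0.88 for Mmp12, -0.89 for Mmp19 and -0.39 for Timp2. Each library summed to between 998867 and 999273 CPM and its depth in reads is unknown, so counting errors cannot be given. The values are shares of a library's RNA. A lower level may mean less of that gene's RNA per cell, fewer cells expressing it or more RNA of other genes. These cannot be told apart. The 8 macrophage markers summed to 5561 to 5933 CPM in LPS+MP, 7797 to 8539 in LPS, 6412 to 6868 in MP and 6789.6 to 7489 in control, so the LPS+MP libraries lay below all others in the sum. The single markers went both ways. Lyz2, the lysozyme gene, averaged 982 CPM in LPS+MP, 1947 in LPS, 2857 in MP and 2393 in control, while Emr1, the F4/80 antigen gene, averaged 771, 957, 71.5 and 34.8 CPM in the same order. In LPS+MP against MP 6 of the 8 markers had a change above 0, and in LPS+MP against LPS 7 of the 8 had one below 0, all but Cd68. The part of these markers in the results was not tested.

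**Figure D1:**
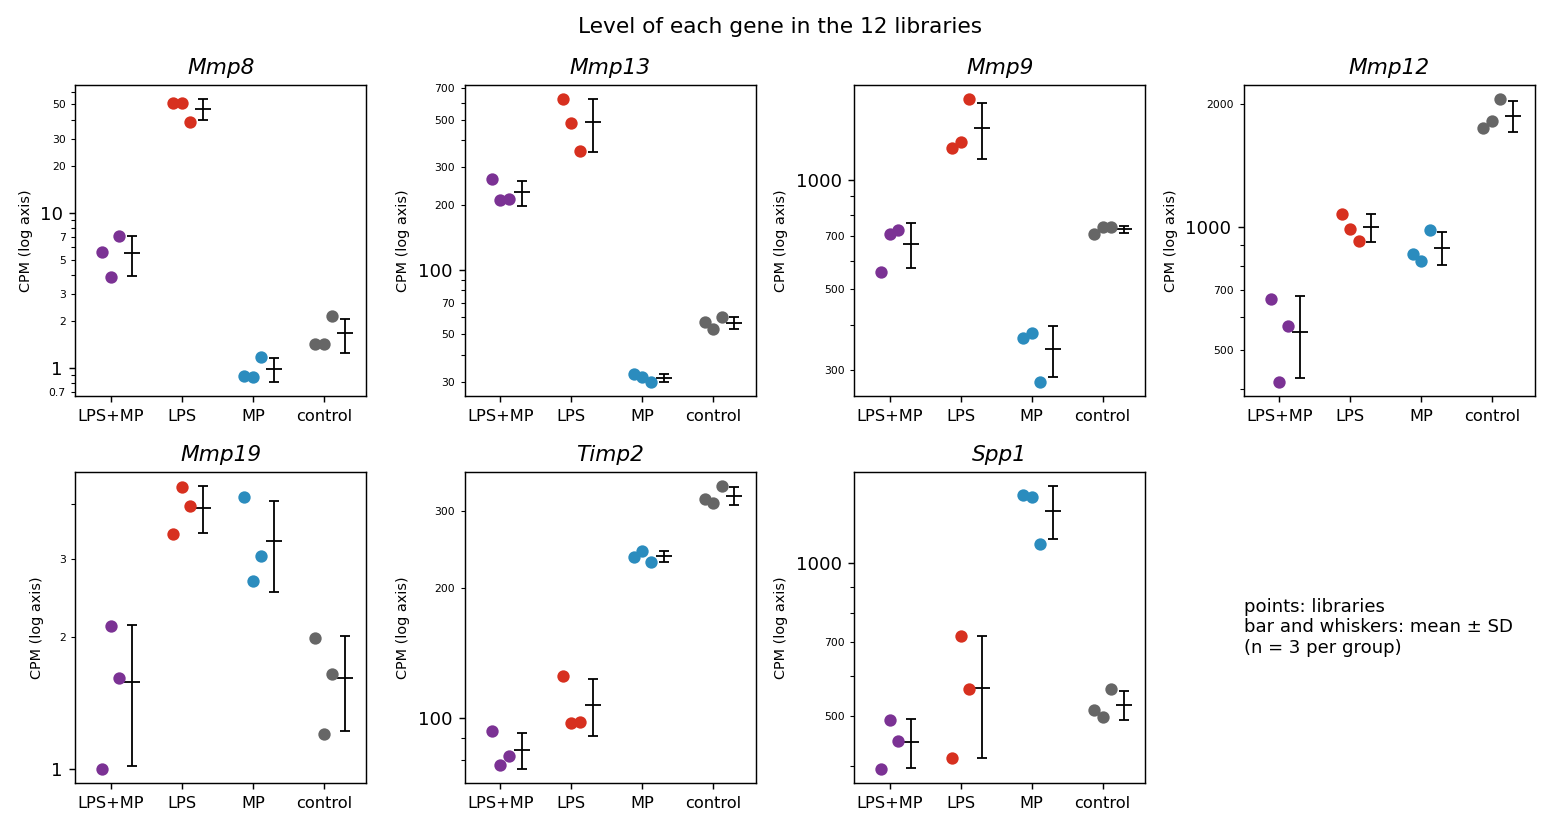
CPM of each gene (log axis) in the 3 libraries of each group, with the mean ± SD beside the points. Mmp8 and Mmp13 were highest in LPS, Spp1 was highest in MP, and Mmp12 and Timp2 were highest in control.

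The collagenase genes Mmp8 and Mmp13 were the members that rose with LPS, and both were lower again when particles were present. Mmp8 encodes neutrophil collagenase (chromosome 9, 7558429 to 7568486, plus strand; coordinates here and below are those of the deposited table, whose build is not named). It stood at 5.63, 3.89 and 7.07 CPM in LPS+MP, 51.1, 51.0 and 38.3 in LPS, 0.891, 0.883 and 1.18 in MP, and 1.43, 1.44 and 2.15 in control. No group overlapped another, and every LPS library was far above the rest. Mmp8 rose with LPS by 4.16 ± 0.19 against control (adjusted p = 2.91e-11) and, in the presence of particles, by 1.69 ± 0.19 against MP (adjusted p = 1.37e-06). It fell in LPS+MP by 2.89 ± 0.19 against LPS (adjusted p = 1.69e-08). MP alone did not pass against control (-0.42 ± 0.19, adjusted p = 0.0847). Without LPS replicate 2 the change with LPS was 4.09 and that of LPS+MP against LPS was -2.82.

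Mmp13 encodes collagenase 3, the main interstitial collagenase of rodents (chromosome 9, 7272514 to 7283333, plus strand). It stood at 264, 211 and 212 CPM in LPS+MP, 624, 483 and 356 in LPS, 32.7, 31.5 and 29.9 in MP, and 56.9, 52.9 and 60.2 in control. The groups did not overlap, and the LPS libraries spread most, with an SD of 134 around a mean of 487 CPM (n = 3). Mmp13 rose by 3.05 ± 0.15 with LPS against control (adjusted p = 7.99e-11) and by 2.82 ± 0.15 in LPS+MP against MP (adjusted p = 1.93e-10). It fell by 1.06 ± 0.15 in LPS+MP against LPS (adjusted p = 5.73e-05), but without LPS replicate 1, the highest library, that change was -0.86 and under the size threshold. Without LPS replicate 2 it was -1.05. MP against control stood at -0.83 ± 0.15 (adjusted p = 0.000432), short of 2-fold.

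Mmp9, the gelatinase B gene (chromosome 2, 164940780 to 164955850, plus strand), was lower wherever particles were added. It stood at 558, 708 and 729 CPM in LPS+MP, 1219, 1269 and 1664 in LPS, 368, 379.6 and 278 in MP, and 711, 740.2 and 740.0 in control. LPS+MP overlapped control, LPS lay above both, and MP lay below all other groups. Mmp9 fell by 1.11 ± 0.13 in MP against control (adjusted p = 1.43e-05), a call that ended without MP replicate 3 (-0.96). It fell by 1.05 ± 0.13 in LPS+MP against LPS (adjusted p = 2.29e-05), a call that ended without LPS replicate 3 (-0.91), without LPS+MP replicate 1 (-0.93) and with quantile normalization (-0.99), and held without LPS replicate 2 (-1.11). LPS+MP against control stood at -0.15 ± 0.13 (95% interval -0.43 to 0.14, adjusted p = 0.354). LPS against control did not reach 2-fold (0.91 ± 0.13, adjusted p = 2.78e-05). LPS+MP against MP did not either (0.96 ± 0.13, adjusted p = 1.87e-05), but passed with median-ratio scaling (1.11) and without MP replicate 1 (1.02), MP replicate 2 (1.04) or LPS+MP replicate 1 (1.08).

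Mmp12, the macrophage elastase gene (chromosome 9, 7344381 to 7369499, plus strand), was lower in every treated group than in control. It stood at 666, 416 and 571 CPM in LPS+MP, 1075, 987 and 922 in LPS, 857, 823 and 978 in MP, and 1739.9, 1815 and 2050.5 in control. LPS and MP overlapped each other, LPS+MP lay below both, and control lay above all of them. Mmp12 fell by 1.08 ± 0.13 in MP against control (adjusted p = 1.87e-05; -0.97 and no longer called with quantile normalization) and by 1.78 ± 0.13 in LPS+MP against control (adjusted p = 1.04e-08). With LPS alone it stood at -0.91 ± 0.13 (adjusted p = 2.78e-05; -0.90 without LPS replicate 2), under the size threshold. The change of LPS+MP against LPS was -0.87 ± 0.13 (adjusted p = 0.000134); it passed without LPS+MP replicate 1, at -1.02.

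Mmp19, which encodes a widely expressed MMP outside the collagenase and gelatinase groups (chromosome 10, 128790953 to 128800824, plus strand), was scarce. It stood at 1.00, 2.11 and 1.61 CPM in LPS+MP, 3.42, 4.39 and 3.96 in LPS, 4.16, 2.67 and 3.05 in MP, and 1.99, 1.20 and 1.64 in control. LPS overlapped MP, and LPS+MP overlapped control. Each agent alone thus went with a higher level that was under the threshold, 0.92 ± 0.19 for LPS (adjusted p = 0.000653) and 0.71 ± 0.19 for MP (adjusted p = 0.00832). For LPS+MP against control the change was -0.03 ± 0.19 (adjusted p = 0.889), with a 95% interval of -0.44 to 0.38. Its calls differed between settings. With a pseudocount of 0.1 the gene passed for LPS against control (1.25), LPS+MP against LPS (-1.31) and LPS+MP against MP (-1.05), and leaving out control replicate 1 also let it pass for LPS (1.02). LPS+MP against LPS, at -0.95 ± 0.19 (adjusted p = 0.00131), passed without LPS replicate 1 (-1.03) or LPS+MP replicate 2 (-1.10).

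Timp2, the inhibitor measured here (chromosome 11, 118301069 to 118355740, minus strand), fell with LPS whether or not particles were present. It stood at 93.1, 77.8 and 81.9 CPM in LPS+MP, 125, 97.6 and 98.0 in LPS, 235, 244 and 229.8 in MP, and 319.8, 314 and 344 in control. The groups did not overlap. Timp2 fell by 1.61 ± 0.09 with LPS against control (adjusted p = 7.45e-10; -1.55 without LPS replicate 2) and by 1.48 ± 0.09 in LPS+MP against MP (adjusted p = 2.03e-09). Particles went with smaller differences, -0.46 ± 0.09 in MP against control (adjusted p = 0.00124) and -0.33 ± 0.09 in LPS+MP against LPS (adjusted p = 0.0124), neither of which reached 2-fold.

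Spp1, the osteopontin gene (chromosome 5, 104435118 to 104441050, plus strand), was the member that rose with particles alone. It stood at 394, 493 and 447 CPM in LPS+MP, 415, 721 and 567 in LPS, 1360.4, 1351 and 1091 in MP, and 515, 499 and 566 in control. Every MP library was above every other library, while the LPS libraries spanned those of control and overlapped LPS+MP. Spp1 rose by 1.26 ± 0.15 in MP against control (adjusted p = 1.43e-05), and it fell by 1.51 ± 0.15 in LPS+MP against MP (adjusted p = 5.67e-07). LPS against control stood at 0.07 ± 0.15 (95% interval -0.25 to 0.40, adjusted p = 0.699) and turned to -0.12 without LPS replicate 2, the highest LPS library for this gene. LPS+MP against LPS stood at -0.32 ± 0.15 (adjusted p = 0.118), or -0.13 without that library.

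Across comparisons, members called are set beside the share of all genes called. In MP against control 1 of 7 members rose and 2 fell, beside 1.82% and 1.85% of genes (3.67% in either direction). In LPS against control 2 rose and 1 fell, beside 8.30% and 8.05% (16.3% in either direction). In LPS+MP against control 2 rose (Mmp8 by 1.27 ± 0.19, Mmp13 by 1.99 ± 0.15) and 2 fell (Mmp12, and Timp2 by 1.94 ± 0.09), beside 8.52% and 12.3% (20.8% in either direction). In LPS+MP against MP 2 rose and 2 fell, beside 5.71% and 7.88% (13.6% in either direction; 671 up and 926 down, or 788 up and 750 down with median-ratio scaling and 758 up and 730 down with quantile normalization). In LPS+MP against LPS 0 rose and 3 fell, beside 0.630% and 3.89% of genes (4.52% in either direction; 74 up and 457 down, or 129 up and 341 down with quantile normalization). In that comparison all 7 members had a change below 0 (median -0.95, range -2.89 to -0.32), as did 55.8% of all genes, whose median was -0.05; each stayed below 0 under every alternative run. With the adjusted p alone and no size threshold, members called numbered 6, 6, 4, 7 and 6 in the order above, beside 38.9%, 62.1%, 66.3%, 55.6% and 35.2% of genes. The comparisons share libraries, so their counts are not independent of each other.

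**Figure D2:**
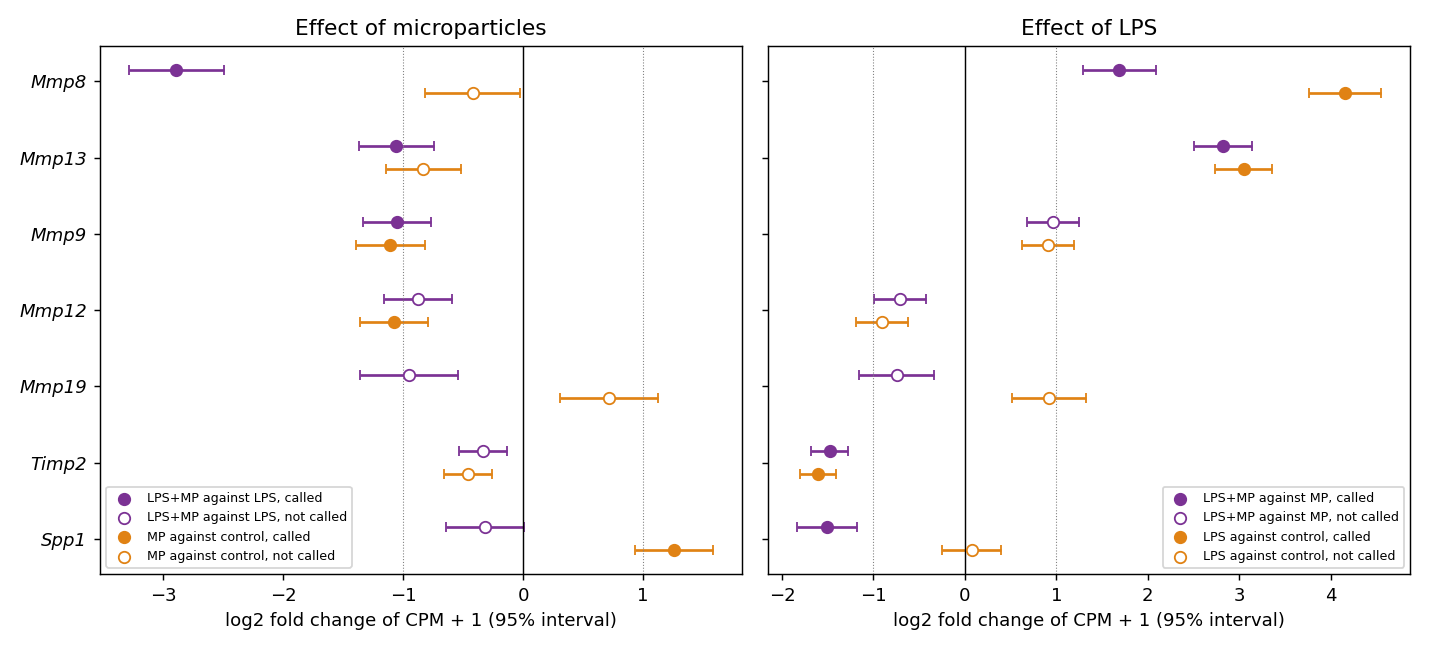
Log2 fold changes of CPM + 1 with 95% intervals for the effect of microparticles (left) and of LPS (right), each in the presence and absence of the other agent; filled points passed the threshold and dotted lines mark 2-fold. The intervals of the paired estimates lie apart for Mmp8, Mmp19 and Spp1.

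Whether the particles acted differently in the presence of LPS was tested as an interaction, the change of LPS+MP against LPS minus that of MP against control. Of the members 0 were called above 0 and 3 below, beside 1.02% and 3.68% of genes (4.70% in either direction, 22.0% by adjusted p alone; 120 up and 432 down, or 193 up and 306 down with quantile normalization). Mmp8 had an interaction of -2.47 ± 0.26 (adjusted p = 1.06e-05), Mmp19 of -1.67 ± 0.27 (adjusted p = 0.000467) and Spp1 of -1.58 ± 0.22 (adjusted p = 0.000105). Without LPS replicate 2 these were -2.40, -1.60 and -1.39, all called. For Mmp9 the interaction was 0.05 ± 0.19 (adjusted p = 0.868, 95% interval -0.35 to 0.46), for Mmp12 0.20 ± 0.19 (adjusted p = 0.480, -0.20 to 0.61), for Mmp13 -0.23 ± 0.21 (adjusted p = 0.471, -0.67 to 0.22) and for Timp2 0.13 ± 0.13 (adjusted p = 0.523, -0.16 to 0.41). Their intervals leave room for an interaction of either sign.

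Levels of different genes are compared per kb of transcript (GENCODE M21 length of the transcript listed for each gene). In LPS+MP the order was Spp1 (315 CPM per kb), Mmp9 (209), Mmp12 (153), Mmp13 (85.7), Timp2 (22.7), Mmp8 (2.28) and Mmp19 (0.463). In LPS it was Mmp9 (436), Spp1 (402), Mmp12 (276), Mmp13 (182), Timp2 (28.8), Mmp8 (19.3) and Mmp19 (1.15). In MP it was Spp1 (898), Mmp12 (246), Mmp9 (108), Timp2 (63.7), Mmp13 (11.7), Mmp19 (0.969) and Mmp8 (0.407). In control it was Mmp12 (518), Spp1 (373), Mmp9 (230), Timp2 (87.9), Mmp13 (21.2), Mmp8 (0.691) and Mmp19 (0.474). Mmp13 thus stood above Timp2 in both groups that received LPS and below it in both that did not.

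The 5 MMPs among the members summed to 451 ± 27.5 CPM per kb in LPS+MP, 914 ± 33.3 in LPS, 367 ± 5.46 in MP and 770.5 ± 49.6 in control (SD, n = 3 each). Mmp12 made 33.7% ± 6.23 of that sum in LPS+MP, 30.2% ± 2.34 in LPS, 67.0% ± 5.26 in MP and 67.2% ± 1.48 in control. Mmp9 made 46.7% ± 7.77, 47.6% ± 7.90, 29.4% ± 5.11 and 29.9% ± 1.46 in the same order of groups, and Mmp13 19.0% ± 2.27, 19.9% ± 5.32, 3.20% ± 0.166 and 2.75% ± 0.155. Mmp8 made 0.501% ± 0.118 in LPS+MP, 2.12% ± 0.368 in LPS, 0.111% ± 0.0179 in MP and 0.0890% ± 0.0162 in control, and Mmp19 0.104% ± 0.0423, 0.127% ± 0.0201, 0.264% ± 0.0606 and 0.0619% ± 0.0170. The shares of Mmp8 in LPS+MP and LPS did not overlap, nor did those of Mmp19 in MP and control. The sum itself was lower in each group with particles than in its counterpart. Set against Timp2 per kb, the MMP sum was 19.9 ± 1.47 times as high in LPS+MP, 32.1 ± 3.85 in LPS, 5.76 ± 0.256 in MP and 8.77 ± 0.270 in control. These sums and ratios were not tested and are levels of RNA, not of protease. The ratio counts Timp2 alone and leaves out every other MMP inhibitor.

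**Figure D3:**
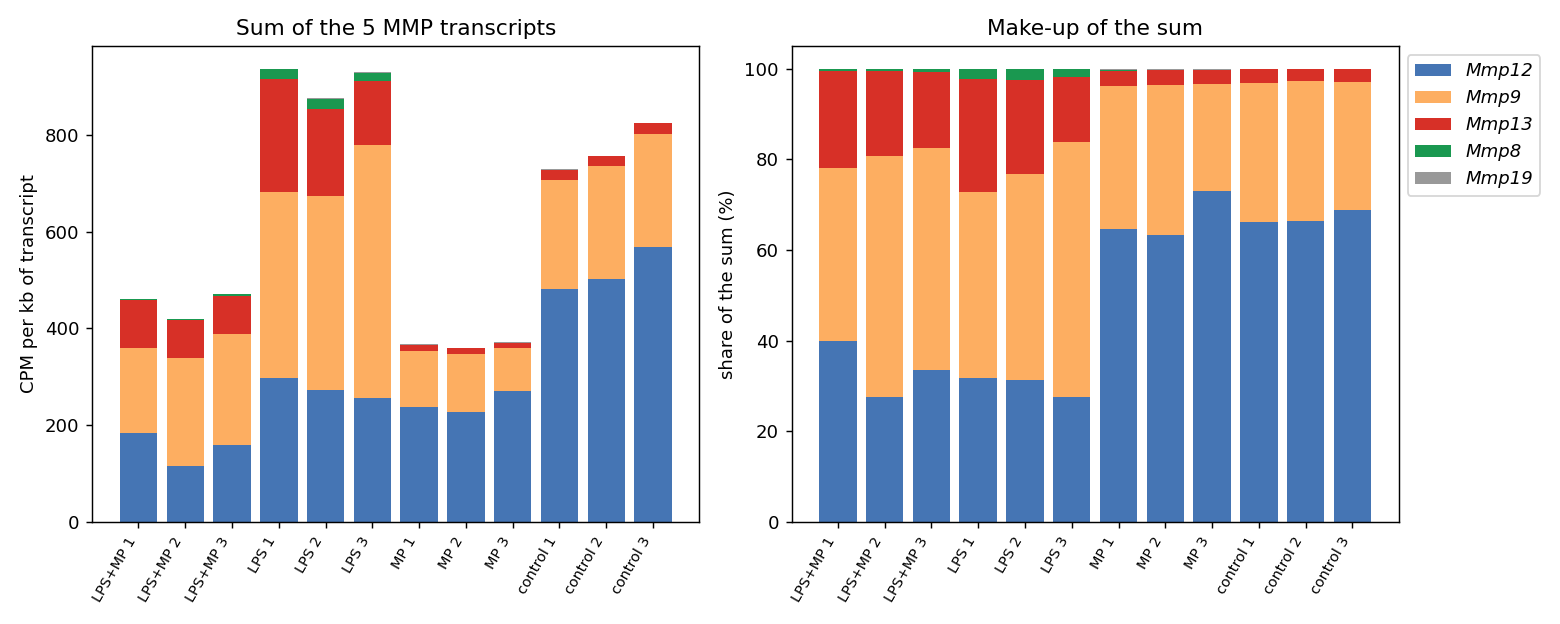
CPM per kb of transcript of the 5 MMP members, stacked for each library (left), and the percent of that sum made by each gene (right). Mmp12 makes the greater part of each bar in MP and control, and Mmp9 and Mmp13 do so together in LPS and LPS+MP.

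The chromosome 9 neighbours differed in their changes. Mmp13, Mmp12 and Mmp8 lie within 295973 bases in the deposited coordinates, with Mmp10 between Mmp12 and Mmp8, and Mmp27 next to Mmp8. Mmp27 rose with LPS by 1.51 ± 0.21 (adjusted p = 1.82e-05) and fell in LPS+MP by 1.44 ± 0.21 against LPS (adjusted p = 9.87e-05), with means of 0.775 ± 0.189 CPM in LPS+MP, 3.98 ± 1.74 in LPS, 0.158 ± 0.146 in MP and 0.688 ± 0.0856 in control. It passed the filter of 1 CPM in 3 libraries only through the LPS libraries. A higher level in LPS than elsewhere was thus built into its selection. Mmp10, the stromelysin 2 gene, fell as Mmp12 did with MP, by 1.66 ± 0.20 against control (adjusted p = 1.15e-05) and it did not pass with LPS (-0.23 ± 0.20, adjusted p = 0.331). Of the 6 other genes within 1000000 bases of this stretch, chosen by position, the apoptosis inhibitor gene Birc3 rose with LPS (1.82, adjusted p = 9.74e-12) and none was called in the particle comparisons.

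**Figure D4:**
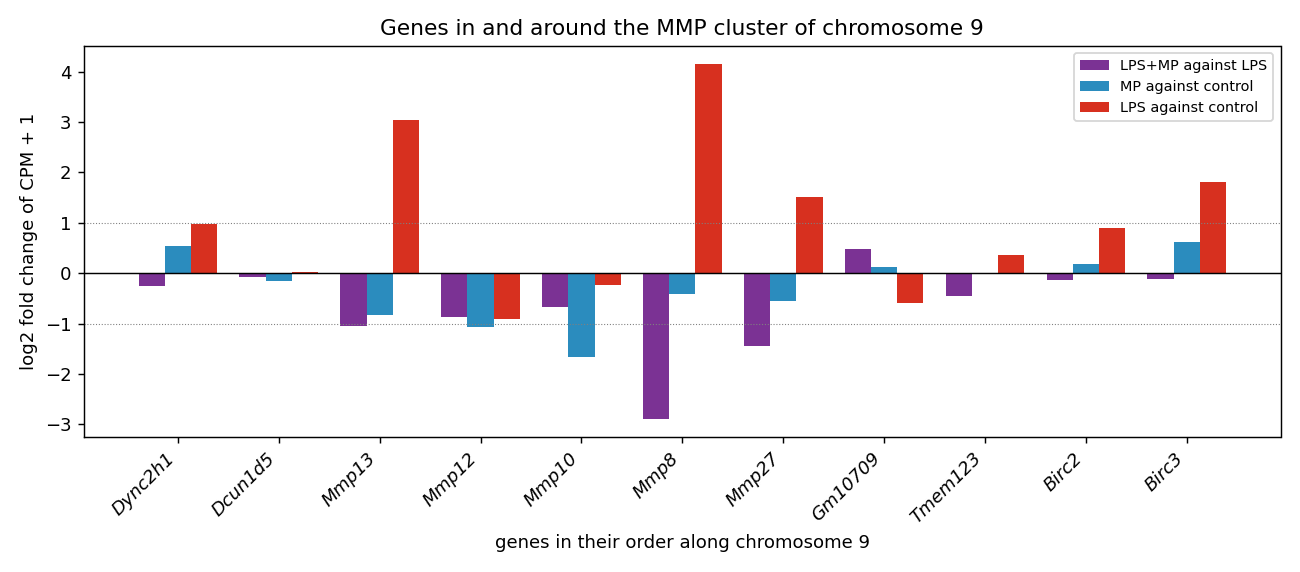
Log2 fold changes of CPM + 1 for the 11 genes in and around the MMP cluster, in their order along chromosome 9 (positions not to scale), for 3 comparisons; dotted lines mark 2-fold. Mmp13, Mmp8 and Mmp27 rise with LPS and are lower in LPS+MP than in LPS, while Mmp12 is below 0 in all 3. Mmp27 passed the expression filter only through the LPS libraries.

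The genes whose pattern was most like each member's were found by Pearson correlation of log2(CPM + 1) over the 12 libraries, which share their 4 groups, so these values mostly describe group means. Nearest to Mmp13 were the chemokine gene Ccl9 (0.995), Lacc1 (0.995) and Antxr1 (0.990). Nearest to Mmp8 were the sodium pump subunit gene Atp1b3 (0.993), Mgat4a (0.988) and Adam19 (0.985), which encodes a membrane metalloproteinase. Mmp9 was nearest to Mpp2 (0.976), Ubash3b (0.964) and the integrin gene Itga9 (0.959), and Mmp12 to the T cell costimulatory receptor gene Cd28 (0.978), Pira2 (0.972) and Nfyc (0.972). Timp2 was nearest to Fam83d, the histidine ammonia lyase gene Hal and Ankrd33b (0.992 each), Spp1 to Tbc1d23 (0.972), Ylpm1 (0.961) and the lectin receptor gene Clec10a (0.961), and Mmp19, called through its interaction alone, to Rint1 (0.954), Cpne8 (0.925) and Il16 (0.906).

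Other genes of matrix turnover are given by list, with the counts called and the list's median change. The shares of all genes to set beside these counts are 1.82% up and 1.85% down with MP, 8.30% and 8.05% with LPS, and 0.630% and 3.89% in LPS+MP against LPS. Of 17 further MMP genes 5 were tested: 3 rose with LPS and 0 fell (median 1.49, against -0.08 for all genes), among them Mmp25, which encodes a membrane-anchored MMP of leukocytes (2.38 ± 0.16, adjusted p = 5.71e-09), and the gelatinase A gene Mmp2 (1.49 ± 0.24, adjusted p = 7.33e-05). The other was Mmp27, which passed the filter only through the LPS libraries, so its rise was built into this count. Mmp2 averaged 2.26 ± 0.768 CPM in LPS+MP, 3.15 ± 0.765 in LPS, 1.51 ± 0.398 in MP and 0.523 ± 0.559 in control. In LPS+MP against LPS Mmp25 stood at 0.56 ± 0.16 (adjusted p = 0.0163), above 0 where the 7 members were below it. Plasminogen activation, a protease cascade that can activate pro-MMPs, had 8 of 11 genes tested, of which 3 rose and 1 fell with LPS (median 0.20). Serpinb2, an inhibitor of plasminogen activators, averaged 129 ± 28.8 CPM in LPS+MP and 184 ± 68.9 in LPS and is listed at 0 in control, so no fold is given. The plasminogen receptor gene Plgrkt rose by 1.38 (adjusted p = 2.20e-09), and Plau, the urokinase gene, fell by 2.62 ± 0.09 (adjusted p = 2.25e-12). Plau averaged 92.5 ± 9.93 CPM in LPS+MP, 62.0 ± 7.57 in LPS, 231 ± 9.96 in MP and 386 ± 17.3 in control. With MP alone 3 of these 8 genes fell and 0 rose (median -0.69, against 0.02 for all genes), among them Anxa2, a plasminogen-binding annexin gene (-1.05 ± 0.08, adjusted p = 9.76e-08), and Plat, the tissue plasminogen activator gene (-1.30 ± 0.19, adjusted p = 9.55e-05). In LPS+MP against LPS 0 of the 8 were called in either direction.

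Among genes that process or clear MMPs (4 of 7 tested), Lrp1, an endocytic receptor that takes up MMPs and MMP-TIMP complexes, fell with MP by 1.08 ± 0.13 against control (adjusted p = 1.43e-05) and fell by 1.42 ± 0.13 with LPS (adjusted p = 1.57e-07). The proprotein convertase gene Furin did not pass with either agent alone and rose in LPS+MP by 1.25 ± 0.10 against control (adjusted p = 3.45e-08). Of 4 further MMP inhibitor genes 1 was tested, Reck, at 3.81 ± 0.241 CPM in LPS+MP, 5.08 ± 0.693 in LPS, 3.92 ± 0.603 in MP and 3.51 ± 0.324 in control, and it was not called in any comparison. Of the ADAM and ADAMTS genes, relatives of the MMPs, 14 of 21 were tested. With LPS 5 rose and 0 fell (median 0.32, range -0.62 to 2.71), led by Adam19 (2.60), Adam33 (2.71) and Adamts4 (2.44), and 0 were called with MP. Adam19, Adam33, Adamts4 and Adamts7 averaged 0.201, 0.254, 0.506 and 0.0544 CPM in control and 0.0998, 0.379, 0.712 and 0.0908 in MP. They passed the filter only through the groups given LPS, so higher levels there were built into their selection. The other gene that rose, Adamts6, averaged 1.02 CPM in control and 0.694 in MP. The more abundant genes went both ways with LPS, none over 2-fold: Adam8 0.27, Adam17 -0.31, Adam15 0.04, Adam9 0.13 and Adam10 -0.46. In the comparison of LPS+MP with LPS 3 fell and 0 rose (median -0.27), Adam19 by 1.47 ± 0.17 (adjusted p = 7.34e-06), Adamts6 by 1.22 ± 0.21 (adjusted p = 0.000382) and Adam23 by 1.00 ± 0.18 (adjusted p = 0.000457). Of the cathepsins able to cleave matrix, 6 of 7 were tested. Ctsl rose with LPS (1.44 ± 0.08, adjusted p = 2.73e-10), and 0 were called with MP or in LPS+MP against LPS. With MP Ctsl lay just under the size threshold, at 0.99 ± 0.08 (adjusted p = 1.63e-07; list median 0.11, lowest -0.34). In LPS+MP against LPS it stood at 0.53 ± 0.08 (adjusted p = 9.03e-05; list median 0.08, lowest -0.19).

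Osteopontin receptor genes, 8 of 11 tested, had 1 up and 1 down with LPS (median 0.28): the integrin genes Itga5 (1.64 ± 0.09, adjusted p = 5.47e-10) and Itga8 (-2.13 ± 0.20, adjusted p = 1.66e-07). With MP, where Spp1 rose, 0 of the 8 were called in either direction, beside 3.67% of all genes (median 0.00, range -0.72 to 0.55). Of 21 matrix genes 8 were tested, with 3 up and 1 down with LPS (median 0.87), and 0 up and 2 down in LPS+MP against LPS (median -0.23). Thbs1, the thrombospondin 1 gene, fell there by 2.69 ± 0.20 (adjusted p = 1.10e-07), with means of 18.2 CPM in LPS+MP and 122 CPM in LPS, and Tgfbi, another matricellular protein gene, by 2.1 ± 0.13 (adjusted p = 1.65e-08). The 3 matrix genes up with LPS were Thbs1, Vcan and Col4a2. They averaged 0.589, 0.296 and 0.826 CPM in control and 0.843, 0.340 and 0.925 in MP. Thbs1 and Vcan passed the filter only through the groups given LPS, so higher levels there were built into their selection. AP-1 subunit genes, 9 of 10 tested, had 2 up and 0 down with MP (median 0.62), 5 up and 0 down with LPS (median 1.04; Atf3, Junb and Fos had the smallest adjusted p), and 2 up and 0 down in LPS+MP against LPS (median 0.88), where Fosl1 rose by 1.39 ± 0.29 (adjusted p = 0.00177) and Fosb by 1.43 ± 0.19 (adjusted p = 3.89e-05). With LPS, Jun stood at -0.83 (adjusted p = 0.000337) and Jund at -0.68 (adjusted p = 0.0142), neither over 2-fold. Fosb, also among the 2 up with MP, averaged 2.01 CPM in LPS+MP, 0.104 in LPS, 1.85 in MP and 0.240 in control. It passed the filter only through the groups given particles, so higher levels there were built into its selection.

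Markers of other cells in which these members are known were also summed. Neutrophil markers, of which 2 of 8 had a row (Camp and S100a8), summed to 2.36 to 5.08 CPM in LPS+MP, 4.14 to 6.04 in LPS, 1.36 to 2.14 in MP and 1.30 to 2.67 in control; LPS lay above control, as for Mmp8, but overlapped LPS+MP, which for Mmp8 it did not. Osteoclast markers, 3 of 8 with a row (Acp5, Dcstamp and Tnfrsf11a), summed to 69.9 to 72.6 CPM in LPS+MP, 98.8 to 102 in LPS, 72.4 to 73.8 in MP and 72.5 to 79.9 in control. Most of that sum was Tnfrsf11a, which averaged 67.9 CPM in LPS+MP, 94.5 in LPS, 71.7 in MP and 71.9 in control. Acp5 was also highest in LPS, with means of 1.77, 3.69, 0.083 and 0.015 CPM in the same order, whereas Dcstamp was highest in control, with means of 1.59, 2.41, 1.43 and 3.62 CPM. Of the fibroblast markers 1 of 8 had a row, Pdgfra, at 6.90 to 7.97 CPM in LPS+MP, 7.67 to 10.8 in LPS, 1.99 to 2.35 in MP and 1.00 to 1.64 in control. Dendritic cell markers, 3 of 7 with a row (Itgax, Zbtb46 and Batf3), summed to 9.35 to 10.2 CPM in LPS+MP, 9.90 to 11.4 in LPS, 11.3 to 14.6 in MP and 9.40 to 10.95 in control. In this sum MP lay above control and LPS+MP, as for Spp1, but overlapped LPS, which for Spp1 it did not. In MP against control Zbtb46 stood at 0.77 ± 0.14 (adjusted p = 0.000603), Itgax at 0.47 ± 0.17 (adjusted p = 0.0377) and Batf3 at -0.79 ± 0.25 (adjusted p = 0.0231), none over 2-fold. The other listed markers were not analysed here, and the part of such cells in the results was not tested.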

How the data were processed

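RNA sequencing values of 12 libraries of J774A.1 cells were used, 3 per group, grouped by the sample titles. TopHat2 2.1.1, HTSeq, FastQC 11.5, Trimmomatic 0.36, edgeR and DESeq2 are named, without their role, per the submitters' processing notes. Libraries were made with a kit that keeps strand, per the labels' protocols; the genome build, annotation and strand setting of the counting were not stated. The deposited columns are headed RPKM but were read as CPM, from the values alone: each sums to just under 1000000. A deposited column headed logCPM, read as log2 CPM over all libraries, differed from the log2 mean of the 12 columns with an SD of 0.20, and of 0.99 after multiplying by transcript length. Low values were whole multiples of 1 step in MP replicate 1 and LPS replicate 3; in the other libraries the best share was 0.153 to 0.883 (tolerance 0.05 of a step), so read counts could not be rebuilt and a count model was not used.

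With 17 genes under 1 CPM in all but at most 2 libraries left out, log2(CPM + 1) of 11745 genes was fitted with limma 3.58.1 (R 4.3.3) on 4 group means, with a variance trend. Benjamini-Hochberg adjustment covered all genes of a comparison, and p-values measure only the spread between these replicates. The fit was run on simulated data with calls by adjusted p alone, without the size threshold. Changes were planted only in better expressed genes, so genes as low as Mmp19 were not covered. The members and gene lists were chosen with earlier results of these data known. Named genes are the members, up to 3 called genes per list with the smallest adjusted p (otherwise the most abundant), and the 3 genes most like each called member, predicted genes and pseudogenes left out; not all are described, and 1 gene of a list is not reported here. Genes around the cluster, Plau levels, Mmp25 and Furin in single comparisons, and Vcan, Adamts7, Jun and Jund, were chosen by position or after their values were seen. The marker gene Adgre1 was found by its Ensembl ID, as Emr1. Promoters matched 5 of 7 members by symbol.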

Additional observations from a re-analysis of the deposited data

Results flagged for a closer look

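The effect of microparticles differed with and without LPS for 3 members, by the interaction term of the model (limma, adjusted over 11745 genes). For Mmp8 the interaction was -2.47 (log2), with changes of -2.89 in LPS+MP against LPS and -0.42 in MP against control. For Mmp19 it was -1.67, with -0.95 and 0.71, so the sign of the particle effect turned, in a gene that averaged 2.60 CPM over the libraries. For Spp1 it was -1.58, with -0.32 and 1.26. Of all genes 22.0% passed the interaction at an adjusted p under 0.05 alone. Groups of 3 libraries are too small for a test of outlying samples.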

How the results depend on the processing

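Without the 2-fold threshold, members called numbered 6 in MP against control, 6 in LPS against control, 6 in LPS+MP against LPS and 7 in LPS+MP against MP, against 3, 3, 3 and 4 with it. All genes called then numbered 4570, 7297, 7786, 4138, 6527 and 2583 (against control: MP, LPS, LPS+MP; then LPS+MP set against LPS, then MP; last the interaction), against 431, 1920, 2448, 531, 1597 and 552; with a pseudocount of 0.1, LPS+MP against LPS had 807. Of 659 recomputed member values 621 kept direction and call, 23 gained a call, 6 lost one and 9 changed sign, none of the last being called. Spp1 in LPS against control ran from -0.12 to 0.28 with 1 library left out. Mmp19 in LPS+MP against control was 0.060 with quantile normalization, 0.033 with median-ratio scaling and -0.18 to 0.14 with 1 library left out. The interaction of Mmp9 ran from -0.088 to 0.19. The causes were not tested. The median change of all genes in LPS+MP against MP was -0.14, against -0.01 with median-ratio scaling and -0.02 with quantile normalization; in LPS+MP against control it was -0.10, against 0.01 with quantile normalization. With the replicate number as a block, members called stayed at 3, 3, 4, 3, 4 and 3. Same-numbered replicates had residual correlations of -0.247 to 0.158 (median 0.018, 18 pairs), so no pairing by number was seen. Differently numbered replicates were not compared, so a pairing is not excluded. With a minimum of 5 CPM Mmp19 was not tested, which left 2 members called for the interaction. What depth limits cannot be given, since the depth in reads is unknown.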
